A study of Homo sapiens with 18 samples.

Results

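ETV1, FOXF1, HAND1, HAND2, BARX1, OSR1 and HIC1 are 7 transcription factors of the gastrointestinal stromal tumor (GIST) lineage, and they were taken by gene name from a table of 23621 genes. RNA came from GIST-T1, a human GIST cell line that depends on the receptor tyrosine kinase KIT, so every group is the same single line. The 6 groups had 3 libraries each, 18 in all. Cells received imatinib together with JQ1 for 24 h, JQ1 alone for 24 h, imatinib alone for 24 h, JQ1 for 6 h, imatinib for 6 h, or DMSO, the solvent, for which the labels give no time. Each drug was used at 500 nM. Imatinib inhibits KIT and a few other kinases, and JQ1 displaces BET bromodomain proteins from acetylated chromatin. By its title the study asked how enhancer domains control KIT and respond to BET inhibitors, and the question here is how the RNA of these factors stood after each drug and after both.

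GIST cells share a transcriptional program with the interstitial cells of Cajal, the pacemaker cells of the gut wall. ETV1 is an ETS factor of the PEA3 family that these cells need, and its protein is stabilised by ERK signaling below KIT. FOXF1 is a forkhead factor of the mesenchyme around the developing gut and acts upstream of both ETV1 and KIT in GIST. HAND1 and HAND2 are basic helix-loop-helix factors of heart, limb and gut development, and each pairs with an E protein. BARX1 is a homeobox factor of the stomach mesenchyme. OSR1 is a zinc finger factor of intermediate and lateral plate mesoderm. HIC1 is a zinc finger repressor that is often silenced by methylation in cancer and marks mesenchymal progenitors in mouse. Genes that hold cell identity are often read from large enhancer clusters loaded with BET proteins.

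The genes lie on chromosomes 7 (ETV1), 16 (FOXF1), 5 (HAND1), 4 (HAND2), 9 (BARX1), 2 (OSR1) and 17 (HIC1). RefSeq promoter windows of GRCh38.p14 were matched for 3 of the 7 members. These 3, ETV1, HAND1 and HAND2, are shown because the reference used here held no window for the other members. Each run below is the 250 bases before an annotated start, on the minus strand and written 5′ to 3′, and the one for ETV1 lies before the farthest upstream of its 6 starts.
ETV1 chr7:13991426-13991675: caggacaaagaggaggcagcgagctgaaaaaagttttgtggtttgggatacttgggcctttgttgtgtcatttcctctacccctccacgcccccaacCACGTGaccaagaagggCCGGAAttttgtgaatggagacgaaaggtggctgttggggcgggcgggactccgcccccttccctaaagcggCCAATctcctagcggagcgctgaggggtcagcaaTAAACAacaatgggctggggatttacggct
HAND1 chr5:154478228-154478477: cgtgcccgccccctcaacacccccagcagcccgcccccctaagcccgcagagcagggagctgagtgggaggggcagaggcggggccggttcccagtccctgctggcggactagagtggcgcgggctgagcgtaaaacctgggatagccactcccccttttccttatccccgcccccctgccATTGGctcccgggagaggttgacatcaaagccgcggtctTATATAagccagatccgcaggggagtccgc
HAND2 chr4:173530230-173530479: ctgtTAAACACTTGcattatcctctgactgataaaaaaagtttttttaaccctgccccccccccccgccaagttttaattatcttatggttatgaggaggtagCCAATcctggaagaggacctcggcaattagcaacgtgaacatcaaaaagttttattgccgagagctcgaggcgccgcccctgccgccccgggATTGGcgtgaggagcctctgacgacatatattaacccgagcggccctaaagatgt
Capitals mark matches, on either strand, to 1 of 5 motifs. They are CCGGAA for the ETS core, CANNTG for the E-box, TAAACA for the forkhead core, CCAAT for the box of that name, and TATATA for a TATA-like run. The ETV1 window shown held an E-box CACGTG that began 153 bases before the start, the ETS core at 136 bases, a CCAAT box at 64 bases and the forkhead core at 30 bases. Windows before the other ETV1 starts differed in their matches. The one at chr7:13989667-13989916 held only 2 CCAAT boxes, and the one at chr7:13990703-13990952 held the ETS core and 2 E-boxes. The HAND1 window held a reversed CCAAT box at 69 bases and the TATA-like run at 30 bases. The HAND2 window held the forkhead core at 246 bases, which overlaps an E-box CACTTG at 242 bases, and CCAAT boxes at 147 bases and, reversed, at 55 bases. Among 34788 windows of the same length, 14.5% held the ETS core, 61.8% an E-box, 11% the forkhead core, 32% a CCAAT box and 3.76% the TATA-like run. The GC content was 56.0% for the ETV1 window, 67.2% for HAND1 and 49.6% for HAND2, against a median of 58.0% over all windows. These are matches of letters and say nothing about binding.

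Values are FPKM, fragments per kilobase of transcript per unit of mapped reads, as the authors deposited them. ERCC spike-in RNA was added in relation to cell number. The scale is taken to be set by the spike-in because its sum was nearly even between libraries, but the normalization step is not given. Depth in reads is unknown. The summed gene FPKM of a library lay between 286566 and 2463615, lowest with both drugs and highest in DMSO, while the spike-in sum stayed between 6505 and 6948. A gene was said to rise or fall only where limma gave an adjusted p below 0.05 and a log2 change of at least 1 in size, and all 7 members were among the 12771 genes tested. Because most genes fell on the deposited scale, each change is also given after ratio rescaling, in which a library is divided by the median ratio of its genes to their geometric mean. The deposited scale speaks of RNA in relation to spike-in, and the rescaled one of a gene's place among the others. On the deposited scale the tested genes had a median log2 change of -2.05 with both drugs, -1.49 with JQ1 at 24 h, -1.5 with imatinib at 24 h, -1.0 with JQ1 at 6 h and -0.69 with imatinib at 6 h. No label tells if the libraries of a group are from different cultures, and p-values then reflect just the scatter of these libraries, which could be technical alone. In such bulk samples, fewer cells of a type and less RNA per cell cannot be told apart.

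The markers of the labelled tumor type were present. KIT averaged 644 ± 125 FPKM, ANO1 346 ± 71.6 FPKM and CD34 4070 ± 886 FPKM in DMSO (SD, n = 3). The summed level of the 6 GIST markers, ETV1 among them, was 173 to 301 FPKM with both drugs, 772 to 1060 FPKM with JQ1 and 804 to 868 FPKM with imatinib at 24 h, against 4200 to 6400 FPKM in DMSO. CD34 was the largest part of this sum in every group. PDGFRA, also of the 6, averaged 9.89 FPKM with both drugs, 17.5 FPKM with JQ1 and 39.7 FPKM with imatinib at 24 h, against 45.3 FPKM in DMSO. All 4 endothelial and all 4 neural and glial markers had means under 1 FPKM in each of the 6 groups, as did PTPRC, CD3E, CD14 and CD79A of the 5 leukocyte markers. The remaining leukocyte marker, CD68, averaged 11.7 FPKM in DMSO and 0.772 FPKM with both drugs. Of 4 smooth muscle markers, MYH11, DES and CNN1 stayed under 1 FPKM on average. ACTG2 averaged 1.94 FPKM in DMSO, 2.31 FPKM with imatinib at 6 h and 0.162 FPKM with both drugs. The 7 epithelial markers summed to 16.7 to 29.6 FPKM with both drugs and 416 to 664 FPKM in DMSO, nearly all of it KRT18, with KRT19, KRT20, CDH1 and VIL1 under 1 FPKM in every group. That sum moved with the members, and its part in their change was not tested.

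In untreated cells the factors stood at very different levels, which FPKM allows to be compared between genes because it is per length. FOXF1 and OSR1 were the most abundant, at 435 and 422 FPKM in DMSO, above 96.0% and 95.8% of the tested genes. HIC1 followed at 207 FPKM, HAND1 at 168 FPKM and ETV1 at 101 FPKM. BARX1 at 73.3 FPKM and HAND2 at 51.2 FPKM were lowest, and HAND2 still lay above 67.4% of tested genes. All 7 were thus well above the filter of 1 FPKM in every group, the lowest group mean being 5.50 FPKM, of HIC1 with both drugs.

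All 7 factors fell at 24 h with both drugs and with JQ1 alone, and 6 fell with imatinib alone. With both drugs their log2 changes ran between -5.01 and -2.42 with a median of -2.99, against the median of -2.05 over all genes, and 86.0% of all tested genes fell as well. With JQ1 at 24 h the members' median was -1.82, and 75.3% of tested genes fell. With imatinib at 24 h it was -1.92, and 72.1% of tested genes fell. At 6 h, 7 members fell with JQ1 (median -1.17, 49.8% of tested genes fell) and 3, FOXF1, OSR1 and HIC1, fell with imatinib (median -0.98, 20.0% of tested genes fell). None of the 7 rose over DMSO on the deposited scale. Of the tested genes 0.235% rose with both drugs, 0.399% with JQ1 and 0.642% with imatinib at 24 h, and 0.642% with JQ1 and 0.384% with imatinib at 6 h. HAND2 with imatinib at 6 h was the one case in which drug libraries overlapped DMSO, and otherwise every drug library lay below every DMSO library. The share of all tested genes placed wholly below DMSO was 94.4% with both drugs, 92.5% with JQ1 and 90.8% with imatinib at 24 h, and 91.4% with JQ1 and 78.8% with imatinib at 6 h.

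**Figure D1:**
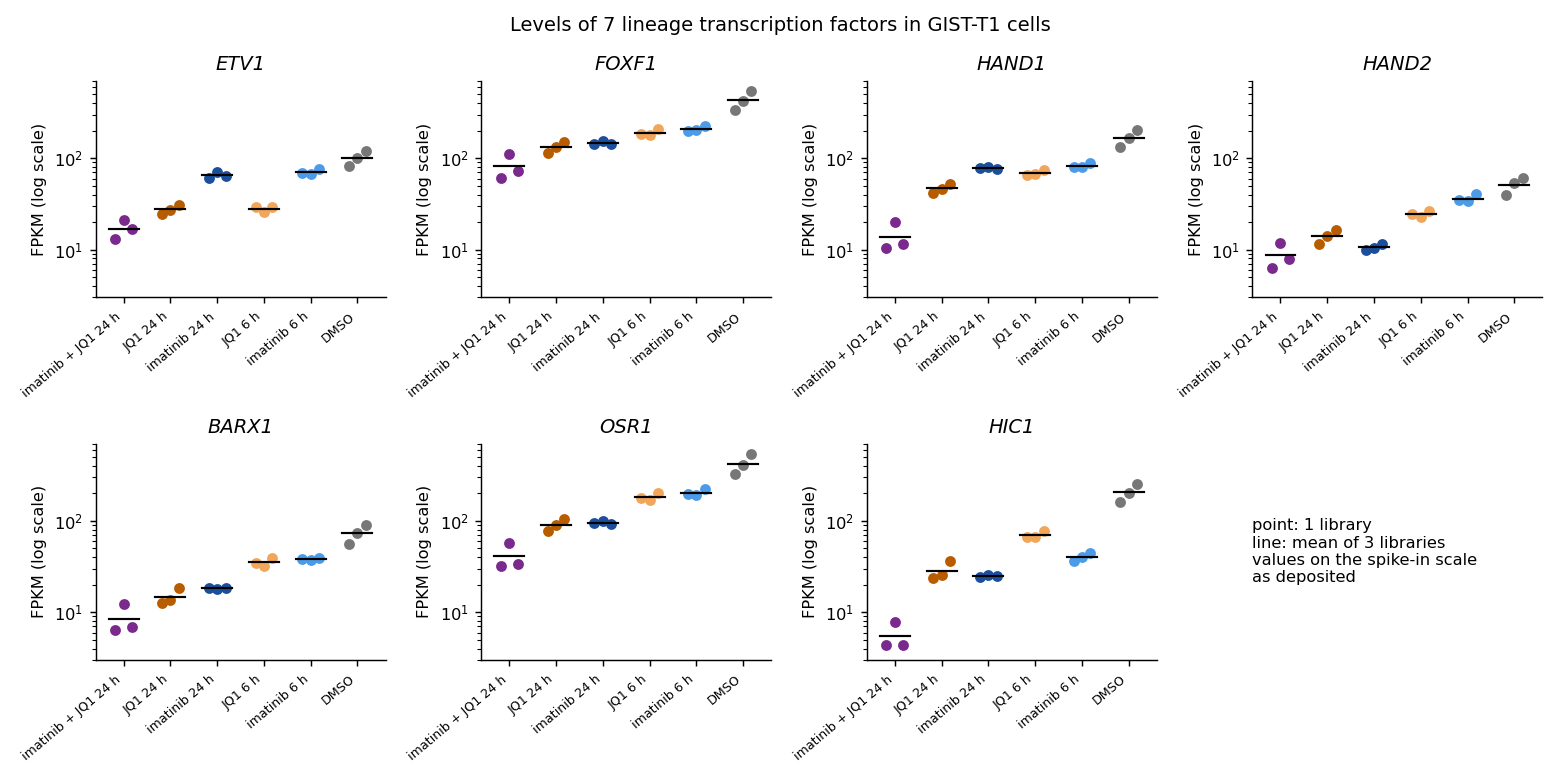
FPKM (log axis) of each factor in 18 libraries, 3 in each of the 6 groups, with a line at the group mean. HIC1 spans the widest range, with 5.50 FPKM on average after both drugs and 207 FPKM in DMSO, and HAND2 after imatinib for 6 h is the one drug group whose libraries overlap DMSO.

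The count at 6 h rested on few libraries. Leaving out DMSO library 3, the highest of its group for every member, left 1 member with imatinib, HIC1, and 3 with JQ1, ETV1, HAND1 and HIC1. Leaving out DMSO library 1 gave 5 with imatinib, because HAND1 at -1.14 and BARX1 at -1.07 then passed, and leaving out imatinib 6 h library 1 again gave 1. Relative to other genes, far fewer moves passed. After ratio rescaling 2 members fell with both drugs (HIC1 and HAND1, 10.1% of tested genes fell), 1 with JQ1 at 24 h (HIC1, 6.47%), 1 with imatinib at 24 h (HIC1, 8.72%), none with JQ1 at 6 h (2.57%) and 1 with imatinib at 6 h (HIC1, 2.08%). ETV1 was the only member to rise, with imatinib at 24 h, where 8.80% of tested genes rose. For JQ1 at 6 h the rescaled member nearest to a call was ETV1, at -0.66.

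**Figure D2:**
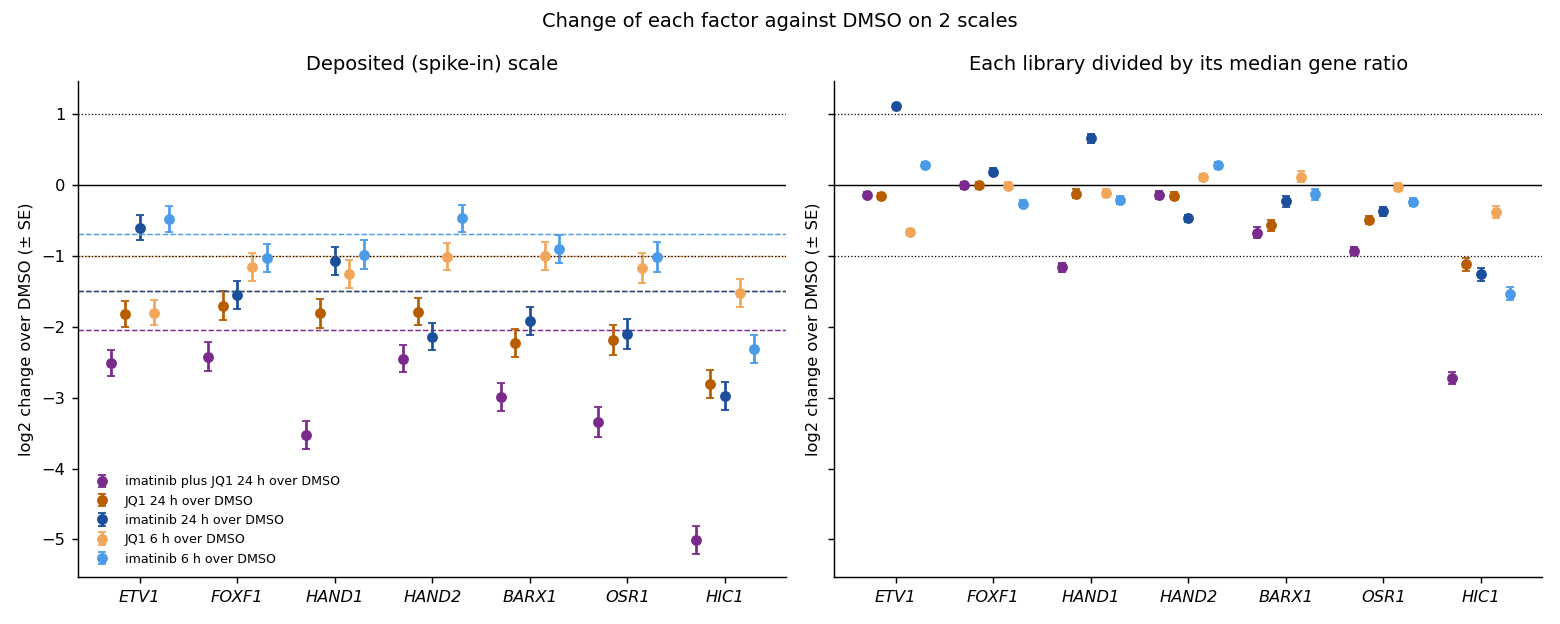
Log2 change over DMSO (± SE) of each factor in 5 drug groups, on the deposited scale (left, dashed lines at the median of all tested genes) and after ratio rescaling (right), with dotted lines at a change of 1. On the left all points lie below 0, and on the right ETV1 with imatinib at 24 h stands at 1.11 and HIC1 with both drugs at -2.72.

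ETV1 fell with JQ1 at both times and passed with imatinib at neither. It had 13.0, 21.1 and 16.7 FPKM with both drugs, 24.3, 27.4 and 31.1 FPKM with JQ1 and 60.7, 71.0 and 64.1 FPKM with imatinib at 24 h. At 6 h it had 29.4, 25.6 and 29.0 FPKM with JQ1 and 69.6, 66.8 and 77.1 FPKM with imatinib, against 82.5, 99.6 and 120 FPKM in DMSO. Every library with JQ1 thus lay below every library without it, and the imatinib libraries of both times overlapped each other. The log2 change over DMSO was -1.80 ± 0.18 (SE) with JQ1 at 6 h (adjusted p = 8e-09) and 6.48% of tested genes were lower. It was -1.82 with JQ1 at 24 h, where 30.9% of tested genes were lower. The later value differed from the earlier one by -0.02 (adjusted p = 0.91). Rescaled, ETV1 over DMSO was -0.66 with JQ1 at 6 h, -0.15 with JQ1 at 24 h and -0.14 with both drugs, none of them a call. The rescaled JQ1 difference between times was 0.52, also not a call. With imatinib at 24 h ETV1 did not pass, at -0.60 ± 0.18 (adjusted p = 0.0027), and 85% of tested genes had a lower value. Rescaled, that change was a rise of 1.11 ± 0.04, between 1.08 and 1.14 when single libraries were left out. JQ1 set directly against imatinib gave -1.32 at 6 h (adjusted p = 2.5e-06) and -1.22 at 24 h (adjusted p = 9.4e-06), and ETV1 was the only member to fall in either, where 9.36% and 4.88% of tested genes fell. Rescaled, the difference stayed a fall at 24 h (-1.26, where 6.09% of tested genes fell) and was -0.95 at 6 h. With both drugs over imatinib ETV1 fell by 1.90 on the log2 scale (adjusted p = 1e-08), rescaled -1.25. Both drugs over JQ1 gave -0.69 (adjusted p = 0.0026), rescaled 0.01.

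The other PEA3 factors, ETV4 and ETV5, are known to be transcribed in response to ERK signaling, and both were near the bottom of the scale with imatinib at 24 h. ETV5 had 0.575, 0.556 and 0.516 FPKM with imatinib at 24 h, against 200, 243 and 295 FPKM in DMSO, a log2 change of -7.30 (adjusted p = 2.9e-18). With JQ1 at 6 h it kept 168, 156 and 179 FPKM and did not pass, at -0.53. With both drugs it had 2.67, 4.93 and 3.32 FPKM, which was higher than with imatinib alone by 1.55 (adjusted p = 3.1e-07). ETV4 averaged 0.259 FPKM with both drugs, 1.92 FPKM with JQ1 and 0.186 FPKM with imatinib at 24 h, against 75.8 FPKM in DMSO. Values this low sit close to the lowest entries of the table, between 0.0383 and 0.108 FPKM by library, so no fold is given for ETV4.

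The make-up of the family within a library needs no scale between libraries. ETV1 held 82.0%, 79.9% and 82.7% of the summed FPKM of ETV1, ETV4 and ETV5 with both drugs, 48.2%, 47.6% and 46.2% with JQ1 and 98.7%, 98.9% and 99.0% with imatinib at 24 h. It held 13.7%, 12.8% and 12.7% with JQ1 and 70.6%, 70.7% and 69.4% with imatinib at 6 h, against 24.0%, 24.0% and 23.5% in DMSO. No drug group overlapped DMSO, and JQ1 at 6 h was the only one below it. Each difference had an exact two-sided permutation p of 0.1, the smallest that 3 against 3 libraries allow, and 0.1 adjusted over the 5 groups. The percentage mean was 98.9 ± 0.146 with imatinib at 24 h and 23.9 ± 0.289 in DMSO (SD, n = 3 each).

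**Figure D3:**
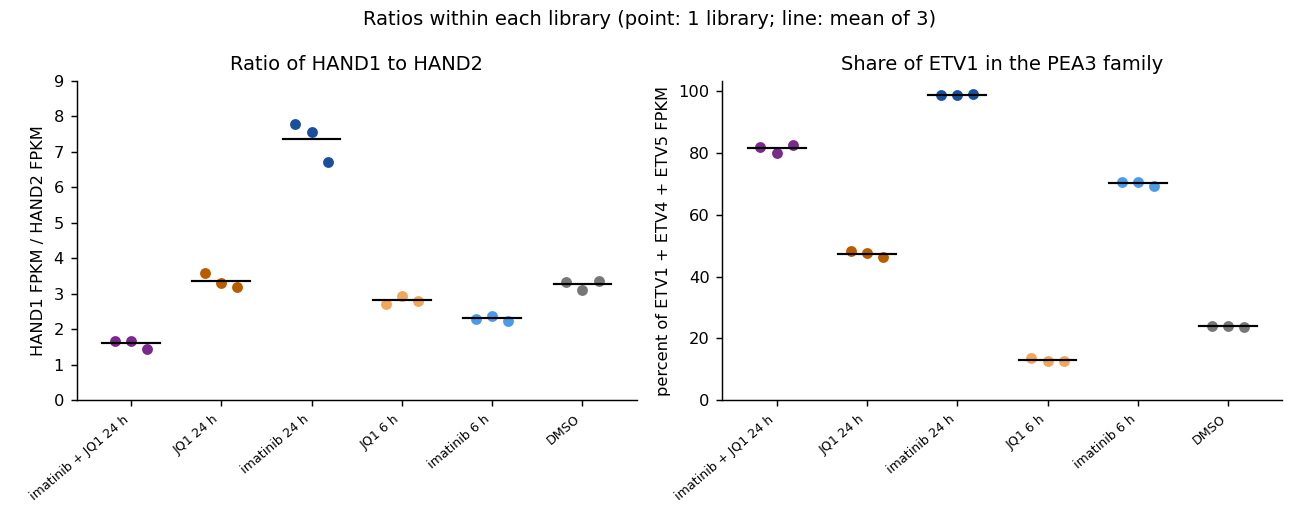
HAND1 FPKM over HAND2 FPKM (left) and the percent of ETV1 in the summed FPKM of ETV1, ETV4 and ETV5 (right), 1 point for each of 18 libraries and a line at the mean of 3. The HAND1 to HAND2 ratio is highest with imatinib at 24 h, at 7.34, and lowest with both drugs, at 1.59, and the ETV1 share runs from 13.0% with JQ1 at 6 h to 98.9% with imatinib at 24 h.

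FOXF1, the forkhead factor, stayed within 0.37 of the median log2 change of all genes in every drug group. It had 61.5, 112 and 72.0 FPKM with both drugs, 114, 132 and 150 FPKM with JQ1 and 142, 153 and 142 FPKM with imatinib at 24 h. The 6 h libraries held 184, 181 and 208 FPKM with JQ1 and 200, 203 and 224 FPKM with imatinib, against 340, 427 and 538 FPKM in DMSO. JQ1 and imatinib overlapped at either time, and all drug libraries lay below DMSO. Over DMSO the log2 change was -2.42 ± 0.20 with both drugs (adjusted p = 6.2e-11), -1.70 with JQ1 and -1.55 with imatinib at 24 h, each within 0.37 of the median of all genes. Rescaled, FOXF1 lay between -0.26 and 0.19 over the 5 drug groups. At 6 h it fell by 1.16 with JQ1 and by 1.03 with imatinib, where 36.7% and 18.4% of tested genes were lower. Without DMSO library 3 those falls became -0.994 and -0.865 and were no longer calls. Without imatinib 6 h library 1 the imatinib value was -0.999.

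FENDRR, a long noncoding RNA that is read away from the FOXF1 promoter, fell in all 5 drug groups, most with both drugs. It had 6.93, 12.3 and 8.29 FPKM with both drugs, 18.1, 19.8 and 24.9 FPKM with JQ1 and 56.0, 58.8 and 55.9 FPKM with imatinib at 24 h, against 179, 220 and 272 FPKM in DMSO. The log2 change was -4.48 with both drugs (adjusted p = 1.8e-15), -3.35 with JQ1 (adjusted p = 5.5e-13) and -1.94 with imatinib at 24 h (adjusted p = 2.1e-09). Rescaled, FENDRR still fell with both drugs (-2.14) and with JQ1 at 24 h (-1.67), and was -0.21 with imatinib. There were 0.112 FPKM of FENDRR for each FPKM of FOXF1 with both drugs, 0.158 with JQ1 and 0.391 with imatinib at 24 h, 0.323 with JQ1 and 0.417 with imatinib at 6 h, and 0.516 in DMSO. This ratio was chosen after values were seen and carries no test. The libraries were stranded, but the sources used here do not say whether reads were assigned by strand. The paralog FOXF2 averaged 1.35 FPKM with both drugs, 1.24 FPKM with JQ1 and 4.31 FPKM with imatinib at 24 h, against 6.48 FPKM in DMSO. Its log2 change was -1.73 with JQ1 at 24 h (adjusted p = 6.1e-10), rescaled -0.45, and imatinib at 6 h gave 0.19, with libraries that overlapped DMSO.

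**Figure D4:**
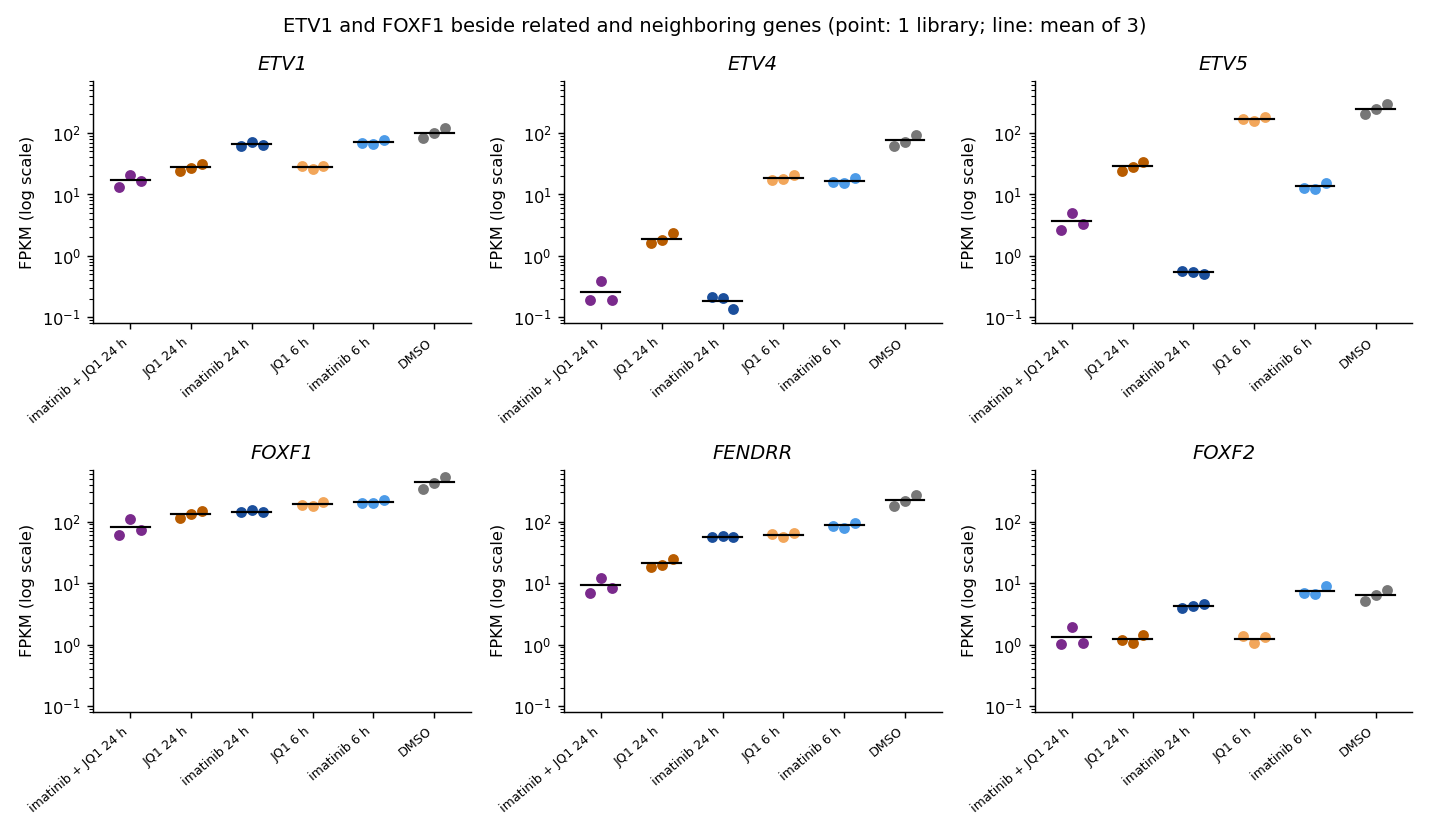
FPKM (log axis) of ETV1, ETV4, ETV5, FOXF1, FENDRR and FOXF2 in 18 libraries, with a line at the mean of each group of 3. ETV5 averages 0.549 FPKM with imatinib at 24 h where ETV1 averages 65.3 FPKM, and FENDRR averages 9.17 FPKM with both drugs where FOXF1 averages 81.9 FPKM.

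HAND1 was lower with both drugs than with either drug alone. It had 10.4, 19.8 and 11.5 FPKM with both drugs, 41.3, 46.1 and 52.7 FPKM with JQ1 and 77.7, 79.8 and 77.0 FPKM with imatinib at 24 h. After 6 h the values were 65.9, 67.0 and 74.2 FPKM with JQ1 and 79.4, 80.6 and 89.6 FPKM with imatinib, against 132, 165 and 205 FPKM in DMSO. The highest library with both drugs lay below the lowest with either drug alone. The log2 change over DMSO was -3.53 ± 0.20 with both drugs (adjusted p = 1.2e-13), with 5.24% of tested genes lower, -1.81 with JQ1 and -1.07 with imatinib at 24 h. The last rested on DMSO library 3 and was -0.912 without it, and rescaled it was 0.66. Both drugs over imatinib gave -2.46 (adjusted p = 1e-09), with 0.681% of tested genes lower, and both drugs over JQ1 gave -1.72 (adjusted p = 2.1e-06), with 0.767% lower. Rescaled, HAND1 also fell with both drugs over DMSO (-1.16), over imatinib (-1.82) and over JQ1 (-1.04). The last of these was -0.963 without library 3 of the combination.

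HAND2 did not pass with imatinib at 6 h and fell with it at 24 h. It had 6.21, 11.9 and 7.98 FPKM with both drugs, 11.5, 14.0 and 16.5 FPKM with JQ1 and 9.95, 10.5 and 11.5 FPKM with imatinib at 24 h. At 6 h it had 24.4, 22.8 and 26.6 FPKM with JQ1 and 34.6, 34.0 and 40.1 FPKM with imatinib, against 39.7, 53.1 and 60.8 FPKM in DMSO. The combination overlapped each drug alone, and imatinib at 6 h overlapped DMSO by 1 library. Over DMSO the log2 change was -2.45 ± 0.19 with both drugs (adjusted p = 3.7e-11), -1.79 with JQ1 and -2.14 with imatinib at 24 h, and -0.47 with imatinib at 6 h (adjusted p = 0.031), which was not a call. With JQ1 at 6 h it was -1.01 and became -0.973, -0.877 and -0.958 without DMSO library 2, DMSO library 3 and JQ1 library 2. Rescaled, HAND2 stayed between -0.47 and 0.28 in the 5 groups.

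The ratio of HAND1 to HAND2 within a library does not depend on its scale. It was 1.68, 1.66 and 1.45 with both drugs, 3.58, 3.30 and 3.19 with JQ1 and 7.80, 7.57 and 6.71 with imatinib at 24 h. It was 2.70, 2.94 and 2.79 with JQ1 and 2.30, 2.37 and 2.24 with imatinib at 6 h, against 3.33, 3.11 and 3.37 in DMSO. JQ1 at 24 h overlapped DMSO (exact two-sided permutation p = 0.6). The other 4 groups did not overlap it, each with an exact p of 0.1, the smallest possible, and 0.125 adjusted over the 5 groups. The log2 ratio differed from DMSO by 1.17 with imatinib at 24 h and by -1.04 with both drugs. HAND2-AS1, the noncoding RNA read away from the HAND2 promoter, was near the filter, at 0.323 FPKM on average with both drugs and 1.98 FPKM in DMSO.

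Of the E proteins, which pair with HAND factors, and the ID proteins, helix-loop-helix inhibitors without a DNA-binding region, 6 of 7 were tested. With both drugs 5 of 6 fell (median -2.32), with JQ1 at 24 h 5 fell (median -1.73) and with imatinib at 24 h 4 fell (median -1.63). Of all tested genes 86.0%, 75.3% and 72.1% fell in these groups, so the counts were near the background. Rescaled, 1 of the 6, ID1, fell in each of them, where 10.1%, 6.47% and 8.72% of tested genes fell. After the same rescaling 1 rose with both drugs, 1 with JQ1 and 2 with imatinib, where 9.17%, 5.25% and 8.80% of tested genes rose. ID1 fell by 6.07 with both drugs (adjusted p = 2.3e-17) and averaged 1.47 FPKM there, against 165 FPKM in DMSO. It still fell by 4.03 after rescaling. The E proteins TCF3 (-2.98) and TCF4 (-2.64) and the inhibitor ID3 (-2.0) fell with both drugs and did not pass after rescaling, at -0.63, -0.36 and -0.35.

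BARX1 and OSR1 were the closest pair among the members. BARX1 had 6.42, 12.3 and 6.87 FPKM with both drugs, 12.5, 13.6 and 18.3 FPKM with JQ1 and 18.4, 18 and 18.3 FPKM with imatinib at 24 h. The 6 h libraries held 35.0, 32.4 and 39.3 FPKM with JQ1 and 38.1, 37.5 and 39.0 FPKM with imatinib, against 56.5, 73.3 and 90.0 FPKM in DMSO. The 2 single drugs overlapped at each time, and the combination lay below either. The log2 change over DMSO was -2.99 ± 0.20 with both drugs (adjusted p = 2.7e-12), -2.23 with JQ1 and -1.92 with imatinib at 24 h. With JQ1 at 6 h it was -1.0, which was lost without DMSO library 2 or 3 or JQ1 library 1 or 2 (-0.989, -0.842, -0.992 and -0.938). Both drugs over imatinib gave -1.06 (adjusted p = 0.00014), lost at -0.909 and -0.952 without library 1 or 3 of the combination. No BARX1 change passed after rescaling. BARX2 was not tested, with 0.0770 to 0.701 FPKM in single libraries.

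OSR1 had 32.1, 57.5 and 34.1 FPKM with both drugs, 76.7, 90.3 and 105 FPKM with JQ1 and 94.6, 98.9 and 93.5 FPKM with imatinib at 24 h. After 6 h the values were 178, 169 and 203 FPKM with JQ1 and 196, 193 and 222 FPKM with imatinib, against 323, 407 and 537 FPKM in DMSO. As for BARX1, the single drugs overlapped at each time and the combination lay below both. Over DMSO the log2 change was -3.34 ± 0.21 with both drugs (adjusted p = 5.7e-13), -2.19 with JQ1 and -2.10 with imatinib at 24 h. It was -1.17 with JQ1 and -1.02 with imatinib at 6 h, and neither was a call without DMSO library 3 (-0.984 and -0.831). Both drugs lowered it further than imatinib (-1.24, adjusted p = 3e-05) and than JQ1 (-1.15, adjusted p = 0.0002). Rescaled to the median ratio, OSR1 with both drugs was -0.93, and rescaled to one total without the MIR1244 rows it passed as a fall, at -1.08, where 13.0% of tested genes fell. Its paralog OSR2 averaged 5.20 FPKM with both drugs, 5.56 FPKM with JQ1 and 6.11 FPKM with imatinib at 24 h, against 8.39 FPKM in DMSO. OSR2 passed in no drug group on the deposited scale, and rescaled it rose with both drugs (1.47) and with imatinib at 24 h (1.10).

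HIC1 fell furthest of the members in every drug group except JQ1 at 6 h, where ETV1 did (-1.80). It had 4.39, 7.76 and 4.36 FPKM with both drugs, 24.0, 25.4 and 36.6 FPKM with JQ1 and 24.3, 25.7 and 24.8 FPKM with imatinib at 24 h. At 6 h it had 66.6, 67.3 and 76.9 FPKM with JQ1 and 36.2, 40.3 and 44.2 FPKM with imatinib, against 163, 201 and 256 FPKM in DMSO. It was the one member lower with imatinib than with JQ1 at 6 h in every library, and by 24 h the 2 drugs overlapped. The log2 change over DMSO was -5.01 ± 0.20 with both drugs (adjusted p = 8.9e-16), and 0.493% of tested genes had a lower value. It was -2.81 with JQ1 and -2.98 with imatinib at 24 h, and -1.52 with JQ1 and -2.31 with imatinib at 6 h. Rescaled, it fell in each of these groups except JQ1 at 6 h (-0.38), with -2.72 for both drugs, -1.12 for JQ1 and -1.26 for imatinib at 24 h and -1.53 for imatinib at 6 h. JQ1 over imatinib at 6 h was 0.79 (adjusted p = 0.0026), not a call. Rescaled to the median ratio the same difference passed at 1.15, where 3.43% of tested genes rose, and rescaled to one total it did not, at 0.94. HIC2 was near the filter, averaging 0.369 FPKM with both drugs and 1.95 FPKM in DMSO.

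Set against each drug alone, some members fell with the combination. Over imatinib, 5 fell (ETV1, HAND1, BARX1, OSR1 and HIC1) where 14.5% of tested genes fell, and 3 fell after rescaling (ETV1, HAND1 and HIC1, 5.58%). Over JQ1, 3 fell (HAND1, OSR1 and HIC1) where 7.35% of tested genes fell, and 2 fell after rescaling (HAND1 and HIC1, 0.814%). HIC1 fell by 2.04 over imatinib (adjusted p = 2.9e-08) and by 2.20 over JQ1 (adjusted p = 1e-07). FOXF1 and HAND2 passed in neither, with -0.87 and -0.31 over imatinib and -0.72 and -0.66 over JQ1. Both comparisons share the libraries with both drugs, of which library 2 was the highest for each member. Without it FOXF1 over imatinib (-1.12) and BARX1 over JQ1 (-1.03) also fell.

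Between times, 3 members were lower at 24 h than at 6 h with imatinib, HAND2 (-1.67, adjusted p = 1.8e-07), OSR1 (-1.08) and BARX1 (-1.03), where 33.4% of tested genes fell. With JQ1 3 were lower at 24 h, HIC1 (-1.29, adjusted p = 1.9e-05), BARX1 (-1.22) and OSR1 (-1.02), where 14.2% of tested genes fell. The OSR1 value with JQ1 was -0.940 without JQ1 6 h library 3 and -0.903 without the unnumbered JQ1 24 h library, and then no call. ETV1 and HAND1 did not pass between times with imatinib, at -0.12 and -0.09, and the libraries of the 2 times overlapped. No member passed between times after rescaling, where 4.38% of tested genes fell with imatinib and 3.45% with JQ1. HAND2 with imatinib was then -0.76.

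The interaction at 24 h is the log2 change of both drugs minus the sum of the changes of each. A positive value places both drugs above that sum. Where every change is a fall, as for the members on the deposited scale, it means a smaller fall than the sum. On the deposited scale the interaction was positive for most genes, with a median of 0.95, and 46.8% of tested genes rose by it. Of the members, 2 rose, HAND2 (1.48 ± 0.28, adjusted p = 7.2e-05) and BARX1 (1.16 ± 0.29, adjusted p = 0.0011). HAND1 (-0.65) and ETV1 (-0.08) were the members below 0, and 2.51% and 7.69% of tested genes were lower. After rescaling, 0 members rose (4.88% of tested genes did) and 2 fell, HAND1 (-1.70 ± 0.09, adjusted p = 1e-10) and ETV1 (-1.10 ± 0.05, adjusted p = 5e-11), where 5.83% of tested genes fell. Those 2 values stayed between -1.77 and -1.62 and between -1.13 and -1.07 as single libraries were left out. On the deposited scale the count moved between 1 and 4 members, 4 without library 1 of the combination and 1 without library 2, where BARX1 was 0.894.

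**Figure D5:**
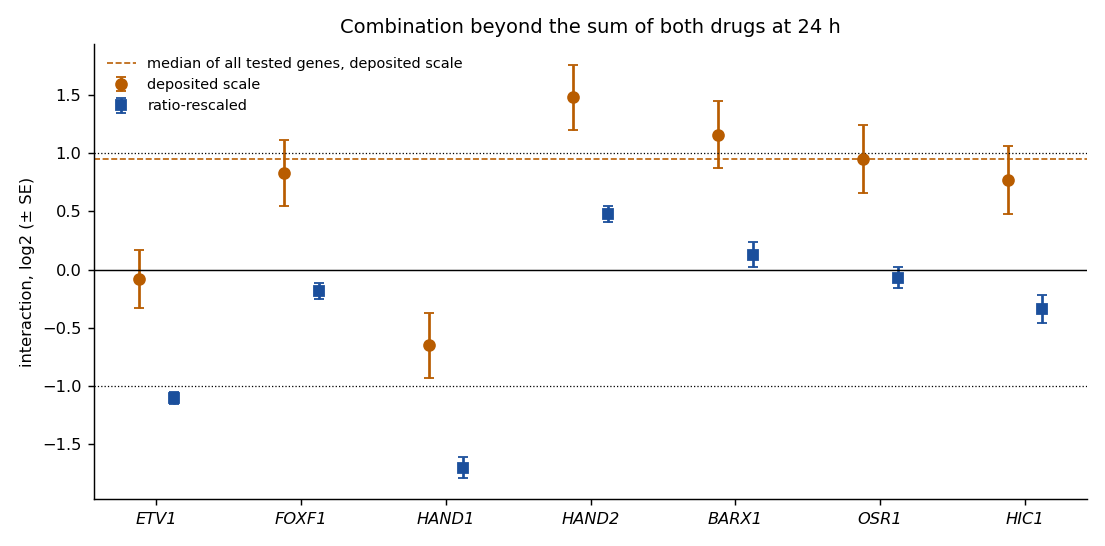
Interaction of imatinib and JQ1 at 24 h (log2 ± SE) for each factor on the deposited scale (circles) and after ratio rescaling (squares), with dotted lines at 1 in size and a dashed line at the median of all tested genes. HAND1 and ETV1 are lowest on both scales, and HAND2 is highest on both.

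Distances between the group profiles put these patterns in order. The distance is the root mean square difference of the 6 group means of log2(FPKM + 1) after centring each gene, so it is a difference in log2 units. BARX1 and OSR1 were nearest, at 0.128, and ETV1 and HIC1 farthest apart, at 1.09. HAND1 was nearer to OSR1 (0.411) and to ETV1 (0.495) than to its paralog HAND2 (0.650), whose nearest member was BARX1 (0.283). After rescaling the nearest pair was the same (0.109), and HAND1 and HAND2 stood at 0.652. The points share libraries, so these are descriptions.

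The genes nearest to each member were taken from 9611 genes with at least 5 FPKM in their highest group, so some gene is always nearest. The median distance to the 9611 genes ran from 0.321 for FOXF1 to 0.913 for HIC1. CNTFR, the ciliary neurotrophic factor receptor, was nearest to HAND1 (0.128), with log2 changes of -3.28 with both drugs, -1.85 with JQ1 and -0.98 with imatinib at 24 h, followed by MYBPC2 (0.200) and LY6H (0.214). Nearest to ETV1 were DOK3 (0.107), CCDC106 (0.119) and SGCE (0.123). FOXF1 had GNL1 (0.051), HDHD1 (0.058) and ACACA (0.062), HAND2 had TXNL1 (0.049), CAMK2G (0.056) and NDUFS3 (0.070), BARX1 had SMYD2 (0.048), PRR13 (0.064) and EIF2S3 (0.075), and OSR1 had EMR1 (0.065), GPC4 (0.090) and VASP (0.090). HIC1 had no close match, with RERE at 0.329 and LIMCH1 at 0.330. After rescaling, 3 of the 3 genes named for HAND2 and 2 of 3 for HAND1 and BARX1 were named again, 1 of 3 for OSR1 and none for ETV1 and FOXF1.

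KIT and other GIST genes gave the setting for these changes. KIT averaged 16.3 ± 3.39 FPKM with both drugs, 43.1 ± 5.94 FPKM with JQ1 and 145 ± 9.58 FPKM with imatinib at 24 h, against 644 ± 125 FPKM in DMSO (SD, n = 3 each). Its log2 change with both drugs was -5.22 (adjusted p = 5.4e-17), rescaled -2.84. Of 12 genes of GIST and the interstitial cells of Cajal, 10 fell with both drugs (median -4.20), 10 with JQ1 (median -2.38) and 9 with imatinib at 24 h (median -2.0). These counts were near the 86.0%, 75.3% and 72.1% of all tested genes that fell, whose medians were -2.05, -1.49 and -1.5. Rescaled, 8, 5 and 4 of the 12 fell, where 10.1%, 6.47% and 8.72% of tested genes fell, and 3 rose with imatinib, where 8.80% of tested genes rose. DUSP6, an ERK phosphatase induced by ERK signaling, fell by 7.37 with both drugs, and the tissue plasminogen activator PLAT fell by 5.17. NPR3, a natriuretic peptide receptor, fell by 5.08. After rescaling these were -5.62, -2.74 and -2.72. DUSP6 averaged 0.435 FPKM with both drugs and 1.02 FPKM with imatinib alone at 24 h, against 242 FPKM in DMSO. Its level with both drugs was under the filter of 1 FPKM, so the size of its fall is uncertain.

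A list of other factors of visceral mesenchyme was read beside the members. Of 30 such factors 27 were tested, and 21 fell with both drugs (median -1.80), 17 with JQ1 (median -1.28) and 14 with imatinib at 24 h (median -1.36), where the medians of all genes were -2.05, -1.49 and -1.5. As shares of the 27 these counts lay below the 86.0%, 75.3% and 72.1% of all tested genes that fell. Rescaled, 5 fell and 3 rose with both drugs, where 10.1% of tested genes fell and 9.17% rose. TBX2, a T-box repressor, fell by 3.92, TEAD4, the partner of YAP, by 3.51, and SNAI1, a zinc finger repressor, by 2.98 with both drugs, and each fell after rescaling too (-2.01, -1.64 and -1.32). Hedgehog and BMP signals act above FOXF1 and HAND genes in the gut mesenchyme. Of 14 genes of these pathways 10 were tested, and 8 fell with both drugs (median -1.91), against 86.0% of all tested genes, led by the BMP receptor BMPR1A (-3.27), the hedgehog receptor PTCH1 (-2.58), its partner SMO (-2.53) and the BMP effector SMAD1 (-1.98). Rescaled, none of the 10 fell with both drugs and 3 rose, where 10.1% of tested genes fell and 9.17% rose. The genes of the COP1 ligase, which marks ETV1 protein for destruction, were all tested. All 4 fell with both drugs (median -2.47), where 86.0% of all tested genes fell, CUL4A with a log2 change of -3.20, DDB1 -2.53, COP1 -2.42 and DET1 -1.36, and none fell or rose after rescaling.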

How the data were processed

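Polyadenylated RNA of GIST-T1 cells was sequenced with a stranded kit as single-end reads, with ERCC spike-in RNA added after RNA was set to cell count, per the labels' protocols. Values are FPKM as the authors deposited them, in 1 table of 18 libraries with 23713 rows, 92 of them spike-ins. Per the submitters' processing notes STAR, Cufflinks and the hg19 build were used, with versions and the normalization step not given in the sources used here, nor whether reads were assigned by strand. The table keeps no read depth, so precision comes only from the spread between libraries (Pearson r 0.986 to 0.992 over 18 pairs within groups). One JQ1 24 h column has no number that matches a title and is called unnumbered.

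From these values log2(FPKM + 1) was fitted with limma 3.58.1 (R 4.3.3), with a trend and group means over all 18 libraries, for 12771 genes of at least 1 FPKM in at least 3 libraries. The 12 comparisons had 12 residual degrees of freedom, with two-sided Benjamini-Hochberg adjusted p-values. A fold change on this scale understates the change of low genes. A call needs an adjusted p below 0.05 and a log2 change of at least 1 in size. Ratios within a library were compared by exact two-sided permutation. The script was tested on simulated data. The members and lists were chosen with earlier results of these data known. Named are the 7 members, their paralogs and neighboring noncoding RNAs, up to 4 called genes of largest change over DMSO from each other list, KIT, and the 3 tested genes nearest to each member, except that 2 of the genes this rule names are not reported here. COP1 and HAND2-AS1 stand in the table under older names. Alternatives were other pseudocounts (0.1 and 0.01), filters, scalings, a replicate block, fits of the compared groups only, adjusted p alone and leaving out each library. A count test was not used because no counts are given.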

Additional observations from a re-analysis of the deposited data

Results flagged for a closer look

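The results below were picked out because an effect differed between settings by a test of the difference itself. The effect of JQ1 differed with and without imatinib at 24 h by 1.48 for HAND2 and by 1.16 for BARX1 on the deposited scale (log2, limma), where 46.8% of tested genes rose by the same test. After ratio rescaling those 2 values were 0.48 and 0.13, and neither passed. On that scale the effect of JQ1 differed by -1.10 for ETV1 and by -1.70 for HAND1, where 5.83% of tested genes fell. The deposited values of ETV1 and HAND1 were -0.08 and -0.65, and neither was a call.

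The effect of imatinib over the shared DMSO libraries was lower at 24 h than at 6 h by -1.67 for HAND2, -1.03 for BARX1 and -1.08 for OSR1, where 33.4% of tested genes fell. The effect of JQ1 was lower at 24 h than at 6 h by -1.22 for BARX1, -1.02 for OSR1 and -1.29 for HIC1, where 14.2% of tested genes fell. None of these differences between times passed after ratio rescaling. The DMSO libraries cancel in such a difference, and no label gives their time. Time in culture and a changing drug effect thus cannot be told apart.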

How the results depend on the processing

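The deposited scale decided most calls. Members called were 1 under ratio rescaling and 1 under one total without MIR1244 with imatinib at 6 h, 0 and 0 with JQ1 at 6 h, 2 and 2 with imatinib at 24 h, 1 and 1 with JQ1 at 24 h, 2 and 3 with both drugs, 3 and 3 with both drugs over imatinib, 0 and 0 for imatinib between times and 0 and 0 for JQ1 between times. By adjusted p alone the counts were 7 with imatinib at 6 h, 7 for both drugs over JQ1, 3 and 2 for JQ1 over imatinib at 6 and 24 h, 5 and 6 between times for imatinib and JQ1, and 6 for the interaction. With single libraries left out the counts ranged over 1 to 5 with imatinib at 6 h, 3 to 7 with JQ1 at 6 h, 5 to 6 with imatinib at 24 h, 7 to 7 with JQ1 at 24 h and with both drugs, 4 to 6 over imatinib, 3 to 4 over JQ1, 1 to 1 for JQ1 over imatinib at both times, 3 to 3 and 2 to 3 between times, and 1 to 4 for the interaction.

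Signs that turned under rescaling are given as log2 values, ratio rescaling before one total. ETV1 was 0.286 and 0.25 with imatinib at 6 h, 1.112 and 1.186 with imatinib at 24 h, 0.007 (ratio) over JQ1, and 0.826 and 0.935 for imatinib and 0.516 and 0.649 for JQ1 between times. FOXF1 was 0.185 and 0.258 with imatinib at 24 h, and by ratio 0.003 with JQ1 at 24 h, 0.004 with both drugs and 0.0 over JQ1. It was 0.241 and 0.026 for JQ1 over imatinib at 6 h, 0.44 and 0.55 for imatinib and 0.018 and 0.156 for JQ1 between times, and -0.185 and -0.293 for the interaction. HAND1 was 0.656 and 0.729 with imatinib at 24 h, 0.1 (ratio) for JQ1 over imatinib at 6 h, and 0.864 and 0.974 for imatinib and 0.127 (total) for JQ1 between times. HAND2 was 0.283 and 0.249 with imatinib and 0.105 (ratio) with JQ1 at 6 h, and 0.332 and 0.122 over imatinib and 0.003 (ratio) over JQ1. BARX1 was 0.123 (ratio) with JQ1 at 6 h, 0.255 and 0.046 for JQ1 over imatinib at 6 h and 0.007 (total) for imatinib between times. OSR1 was 0.216 and 0.002 for JQ1 over imatinib at 6 h and -0.074 and -0.182 for the interaction. HIC1 was -0.046 (total) for JQ1 over imatinib at 24 h, 0.271 and 0.378 for imatinib between times and -0.338 and -0.439 for the interaction. Among related genes, ETV5 was 0.609 and 0.358 with JQ1 at 6 h. FOXF2 was 0.928 and 1.003 with imatinib at 24 h and 0.092 (ratio) with both drugs. OSR2 was 1.096 and 1.173 with imatinib, 0.948 and 0.857 with JQ1 and 1.465 and 1.341 with both drugs at 24 h. HIC2 was 0.26 and 0.135 with JQ1 at 6 h and 0.013 (ratio) with both drugs. HAND2-AS1 was 0.087 (ratio) with JQ1 at 6 h and 0.221 and 0.268 with imatinib at 24 h. SMAD1 was 0.202 and 0.068 with both drugs. The cause was not tested.

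With single libraries left out, ETV1 ranged from -0.112 to 0.06 for JQ1 between times (0.01 without JQ1 6 h library 1) and from -0.247 to 0.081 for the interaction, and for JQ1 over imatinib at 24 h OSR1 from -0.198 to 0.023 and HIC1 from -0.015 to 0.28 (0.24 without JQ1 24 h library 2). OSR2 with JQ1 at 6 h ranged from -0.118 to 0.193. The log2 HAND1 to HAND2 ratio with JQ1 at 24 h over DMSO ranged from -0.013 to 0.071 (-0.002 without DMSO library 2), and was -0.016 with 1 FPKM added. The fit with a replicate block also left out the unnumbered JQ1 24 h library. In it 1 call changed: OSR1 for JQ1 between times was -0.979, so 2 members were called there. Leaving out that library without a block gave -0.903 for OSR1, also no call, so the change cannot be credited to the block. Replicate numbers pair nothing in the labels, and deviations of libraries with the same number correlated over 0.1 in 4 of 40 pairs. Over all tested genes, 421 genes were called after ratio rescaling and 2608 on the deposited scale with imatinib at 6 h, 643 and 6438 with JQ1 at 6 h, and 2467 and 11014 with both drugs, each counted on its own.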
